A study of Mus musculus with 12 samples.

Results

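Interferon response genes are genes whose transcription rises when a cell senses an interferon, and many of them are also transcribed at a low level in cells that have met none. A list of 41 of these genes was followed in gonadal somatic cells of mouse embryos that lack Jmjd1a, the histone demethylase whose current gene symbol is Kdm3a. Members were chosen by accession and brightness: each was represented by its probe with the highest mean signal over the 12 arrays, and it was kept where the scanner software rated that probe well above background in every embryo of some group. This left 30 of the 41 genes, among 19179 features tested, of which 13265 were named genes. The brightness rule itself uses no difference between groups, but a gene seen in 1 group alone can pass it and the list was drawn up with earlier results of these data known, so counts over the 30 genes are descriptions.

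The 4 groups were control males, mutant males, control females and mutant females, with 3 embryos each at embryonic day 11.5. Controls were heterozygous for the Jmjd1a mutant allele and mutants were homozygous null, so no group was wild type. All embryos carried a transgene that places CD271, a surface protein used as a handle, under Nr5a1 control; CD271-positive cells of the gonads and mesonephroi of 1 embryo were collected with magnetic beads, and their RNA was amplified, labelled with Cy3 and hybridised to 1 array. Other cells of the pooled gonads and mesonephroi can remain after such a sort. The sources used here do not give the litters.

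Interferons bind receptors whose Janus kinases activate STAT proteins. Type I interferons bring about the factor ISGF3, which contains STAT2 and IRF9, binds interferon-stimulated response elements and drives antiviral genes such as Isg15, Oas1a and Usp18. Interferon gamma acts in part through IRF1, and its known targets include the guanylate-binding proteins (GBPs) and the genes of antigen presentation. The IFITM genes encode small membrane proteins that block the entry of viruses, and they are also known as genes of early embryonic tissue and germ cells.

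Levels below are log2 intensities set relative to the 75th percentile of their own array, so a level of 0 is a signal at that percentile, and a difference of -1 on this scale is a halving of the signal. Levels of different probes were not set against each other, though those of a marker list were summed. Differences are mutant minus control, with a standard error (SE) from limma, a linear model fitted over all features and all 12 arrays; a gene was called where its p-value, adjusted by the Benjamini-Hochberg method over the 19179 features, was under 0.05. The 75th percentile ranged from 143 to 299.5 intensity units over the arrays, and 58.0% to 65.2% of spots were well above background. Kdm3a stood between 2.70 and 3.03 in the 6 controls and between 0.43 and 1.04 in the 6 mutants. Nr5a1, whose regulatory sequence drives the CD271 handle, differed by 0.11 in males and 0.31 in females, with limma adjusted p-values of 0.85 and 0.63. The arrays lay on 3 slides. Mutant male 1 shared slide 1 with all control males, the other mutant males shared slide 2 with control females 1 and 2, and control female 3 shared slide 3 with all mutant females.

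Promoters are shown first, since ISGF3 acts through a known motif. The 250 bases before the annotated start were searched on both strands for the core letters of the interferon-stimulated response element, GAAANNGAAA, or TTTCNNTTTC on the other strand, with overlapping matches counted. Of the 30 genes kept, 25 have an entry in the RefSeq promoter table of GRCm38.p6, and 9 of these 25 hold the core: B2m, Bst2, Gbp2, Gbp3, Ifitm2, Isg15, Oas1a, Rsad2 and Stat2. Over all genes in RefSeq, 978 of 32851 promoters hold it (2.98%), or 936 of 27025 genes (3.46%). Without the core were Ddx58, Eif2ak2, H2-D1, H2-K1, Ifi35, Ifih1, Ifit2, Ifitm1, Ifitm3, Irf1, Irf9, Lgals3bp, Oasl2, Psmb9, Tapbp and Trim25. Dhx58, Ifi27, Parp9, Rtp4 and Usp18 had no entry.

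The stretches around the match nearest to the start are printed for the called genes Gbp2, Gbp3, Oas1a and Ifitm2. They are also printed for Isg15, B2m and Stat2, which hold the same core and were not called. Bst2 and Rsad2, also with the core and not called, are not printed. Each printed stretch reads 5′ to 3′ on the strand of the gene, with the bases of the match or matches in capitals.
Gbp2: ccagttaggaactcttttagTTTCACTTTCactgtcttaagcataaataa
Gbp3: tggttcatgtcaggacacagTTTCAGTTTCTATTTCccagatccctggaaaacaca
Oas1a: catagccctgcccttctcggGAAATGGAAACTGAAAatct
Ifitm2: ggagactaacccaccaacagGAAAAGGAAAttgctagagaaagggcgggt
Isg15: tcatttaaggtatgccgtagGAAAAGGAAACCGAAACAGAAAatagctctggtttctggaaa
B2m: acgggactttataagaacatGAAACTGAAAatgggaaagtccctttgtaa
Stat2: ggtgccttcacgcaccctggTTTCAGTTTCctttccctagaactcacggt

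In GRCm38.p6 these stretches are chr3:142620584-142620633 for Gbp2, chr3:142559979-142560034 for Gbp3, chr2:122147528-122147577 for B2m and chr10:128270256-128270305 for Stat2, all on the plus strand. Those of Oas1a (chr5:120907526-120907565), Ifitm2 (chr7:140955978-140956027) and Isg15 (chr4:156200855-156200916) lie on the minus strand. Over the 9 genes with the core, the match nearest to the start began 14 bases before it in Oas1a, 39 in Gbp3, 46 in Ifitm2, 59 in Gbp2, 66 in Isg15, 120 in Rsad2, 124 in Bst2, 139 in B2m and 222 in Stat2. Bst2, Gbp3 and Oas1a each hold 2 overlapping matches, and Isg15 holds 3. A second promoter entry of Gbp3 holds no match. The letters TTCNNNGAA, the core of the gamma-activated site, which read the same on both strands, were found in Bst2, Eif2ak2, Ifit2, Irf1 and Oas1a, 5 of 25 genes, against 2306 of 32851 promoters (7.02%) or 2197 of 27025 genes (8.13%). In Bst2 this match began 136 bases before the start and overlapped a response element core. A match records letters and not binding.

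The mutants had lower levels of a subset of the interferon response genes in both sexes. Called genes were all lower: Gbp2, Ifi27 and Ifitm2 in males, and Gbp2, Gbp3, Ifi27, Ifitm2 and Oas1a in females. These were 3 of 30 genes in males, where 0.391% of all features were called lower, and 5 of 30 in females, where 0.349% were. In the mean effect over both sexes, which rests on the same arrays, 7 of 30 genes were called lower, with Ifitm3 and Usp18 added, against 0.985% of all features; none of the 30 was called higher in any of these 3 comparisons. The signal of these genes was 1.60-fold to 2.56-fold lower in mutants in the mean effect. In cell populations such as these, fewer cells of a type and less RNA per cell cannot be told apart.

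The count within 1 sex moved when single arrays were left out, which also leaves fewer embryos in a group. In males 0 of 30 genes were called after control male 1, control male 3, mutant male 1 or mutant male 3 was left out, and the share of all features called, in either direction, fell with them from 0.469% to between 0.136% and 0.271%. In females 0 were called without control female 2 or without mutant female 1, 1 without control female 1, 2 without mutant female 3, and 3 without control female 3 or without mutant female 2, while the share of all features moved from 0.355% to between 0.162% and 0.693%. The mean effect called 17 of 30 genes without control female 3, 15 of them lower and 2 higher, where 25.2% of all features were called, and 5 to 7 of 30 without any other single array. With slide as a fixed block Ifi27 alone was called in males, 0 genes in females, and Ifi27, Ifitm2, Isg15 and Oas1a in the mean effect. Ifi27 and Ifitm2 were called in the mean effect under all 21 alternatives run, with limma adjusted p-values of up to 0.00591 and 0.0207.

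Lower values reached beyond the called genes. Of the 30 genes, 23 were lower in mutant males, with a median difference of -0.28, and 27 were lower in mutant females, with a median of -0.54. Over all features 55.4% and 56.7% were lower, with a median of -0.05 in each sex. The male lean rested in part on mutant male 1. Without that array 18 of 30 genes were lower in males, with a median of -0.16, against 22 to 24 of 30 without any other single array. At an unadjusted limma p-value under 0.05, 8 genes were lower in males and 18 in females, or 26.7% and 60% of the genes kept, against 6.78% and 6.15% of all features. Among the 25 genes well above background on all 12 arrays, 22 were lower in the mean effect, with a median of -0.45. The median of all 30 genes in the mean effect was -0.44, and it lay between -0.28 and -0.46 under quantile normalization, normexp background correction, slide as a block and array brightness as a covariate.

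**Figure D1:**
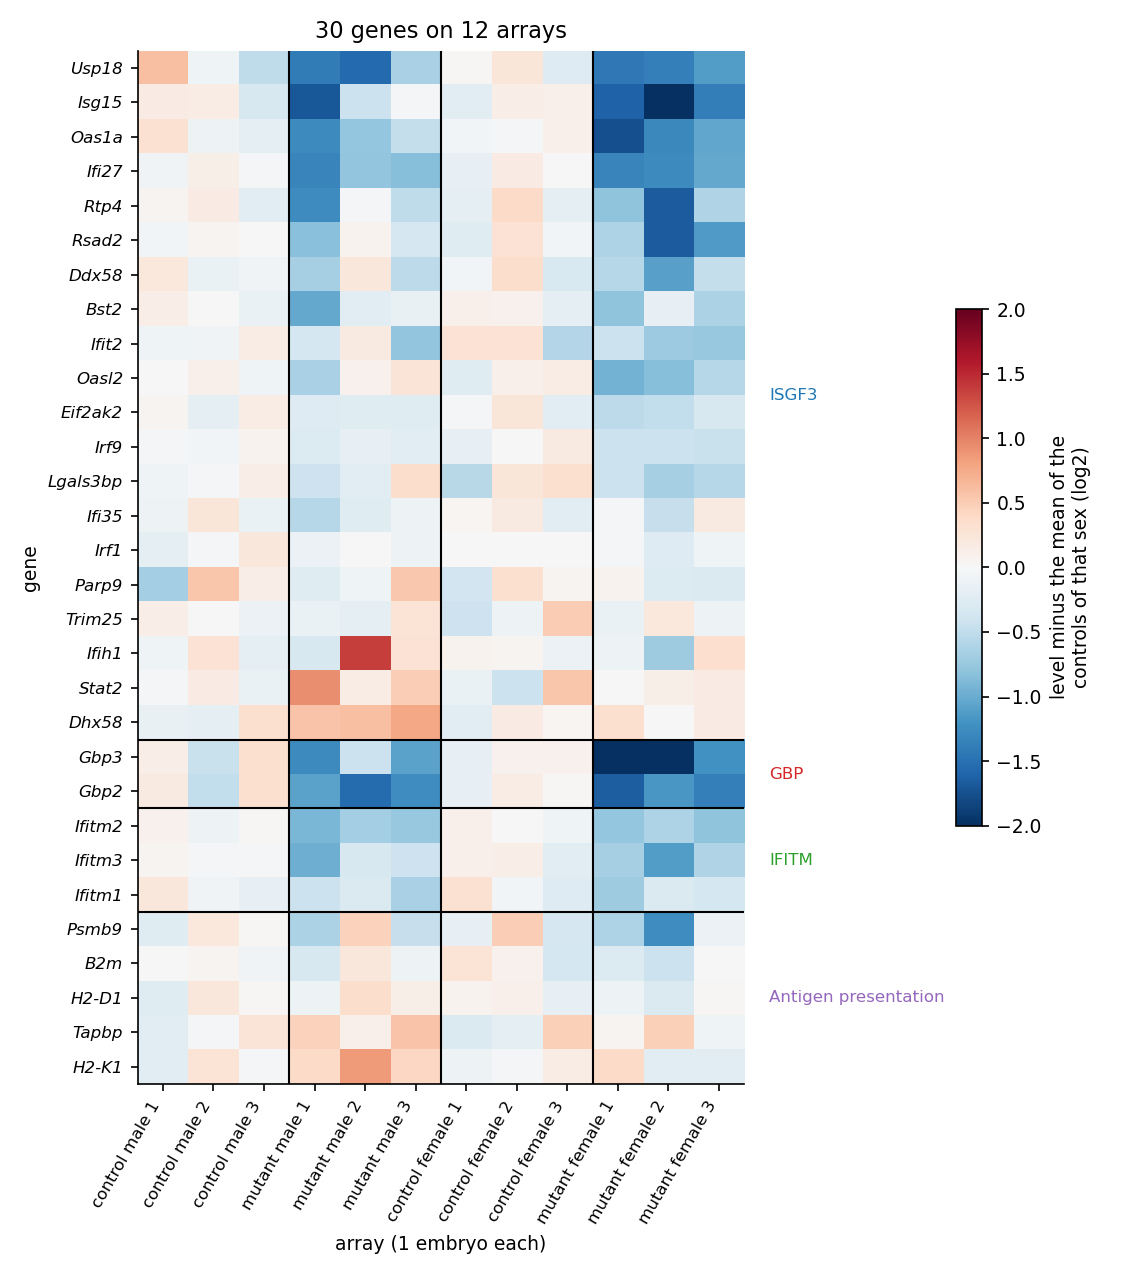
Level of each of the 30 genes kept on each of the 12 arrays, as a log2 difference from the mean of the control arrays of the same sex (colour, which saturates at 2 in either direction); rows are grouped by branch and columns by group. Blue columns in the mutants mark lower levels in the GBP and IFITM rows and in the upper ISGF3 rows, while the antigen presentation rows hold both colours.

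The GBP branch had the most negative differences of the 4. Gbp2 and Gbp3 encode guanylate-binding proteins, large GTPases that gather on membranes around intracellular pathogens. For Gbp2 the control males read 0.58, -0.08 and 0.72, and the mutant males -0.66, -1.14 and -0.84. The control females stood at 0.27, 0.58 and 0.45, and the mutant females at -1.22, -0.73 and -0.93. All 6 mutants lay below all 6 controls. The difference was -1.29 ± 0.22 (SE) in males, a 2.44-fold lower signal (limma adjusted p = 0.0326), and -1.39 ± 0.22 in females, 2.62-fold lower (limma adjusted p = 0.0226). Within slide 1 mutant male 1 differed from the control males by -1.07, and within slide 3 the mutant females differed from control female 3 by -1.40.

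Gbp3 stood at -3.00, -3.58 and -2.82 in control males and at -4.41, -3.56 and -4.20 in mutant males. These ranges overlapped, since mutant male 2 was just above control male 2. In females the controls read -2.99, -2.74 and -2.74 and the mutants -4.85, -4.96 and -4.03, without overlap. The female difference of -1.79 ± 0.29, a 3.46-fold lower signal, was the largest of the 30 genes in either sex (limma adjusted p = 0.0298). The male difference of -0.92 was not called (limma adjusted p = 0.289), and the difference of the effects between the sexes, 0.87 ± 0.41, was not called either (limma adjusted p = 1.0). Both genes lie in a family of close paralogs whose transcripts can bind each other's probes.

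Ifi27, Oas1a and Usp18 led the ISGF3 branch. Ifi27, a small protein of the mitochondrial and nuclear membranes that is widely used as a marker of interferon exposure, stood at 3.27, 3.45 and 3.30 in control males and at 2.02, 2.55 and 2.49 in mutant males. Control females read 3.15, 3.48 and 3.30, and mutant females 1.99, 2.03 and 2.28. Every control of either sex lay above every mutant. The signal was 1.98-fold lower in mutant males (-0.99 ± 0.16, limma adjusted p = 0.0284) and 2.31-fold lower in mutant females (-1.21 ± 0.16, limma adjusted p = 0.00759). Within slides the differences were -1.32 in males and -1.20 in females.

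Oas1a encodes an oligoadenylate synthetase, an enzyme that senses double-stranded RNA and activates RNase L. Its level was -2.76, -3.16 and -3.26 in control males against -4.33, -3.83 and -3.53 in mutant males. Female controls stood at -2.76, -2.75 and -2.60 and female mutants at -4.46, -3.99 and -3.75. Neither sex showed overlap. The difference was called in females (-1.36 ± 0.23, 2.57-fold lower, limma adjusted p = 0.035) and in the mean effect (-1.1 ± 0.16, limma adjusted p = 0.00691), but not in males (-0.84, limma adjusted p = 0.208). Other Oas1 genes are near-identical in part and could share signal with this probe.

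Usp18 is the protease that removes ISG15 from proteins and also damps signalling at the type I receptor. Control males read -3.28, -3.98 and -4.40, and mutant males -5.29, -5.44 and -4.53, of which only mutant male 3 was well above background. Control females read -3.26, -3.05 and -3.55, and mutant females -4.71, -4.65 and -4.40. The groups were apart in both sexes, in males by the gap between -4.40 and -4.53. The mean effect of -1.25 ± 0.21 was called (limma adjusted p = 0.0156), a size that rests in part on 2 mutant male arrays at background, and the effects within 1 sex were not (limma adjusted p = 0.156 in males and 0.153 in females). The mean effect was called under 16 of 20 alternatives, with limma adjusted p-values from 0.00947 to 0.271; it was lost without control female 2, with slide as a fixed block, with array brightness as a covariate and under normexp background correction.

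Isg15, the ubiquitin-like protein that Usp18 acts on, was not called and was added here after its values were seen. It stood at -2.69, -2.71 and -3.17 in control males and at -4.55, -3.28 and -2.89 in mutant males, which overlapped. Control females read -2.43, -2.06 and -2.10 and mutant females -3.82, -4.20 and -3.58, without overlap. The mean effect was -1.19 and its limma adjusted p was 0.0523, just over the threshold; over 21 alternatives the adjusted p ranged from 0.0139 to 0.21, and 7 of them called it. Normexp background correction, whose added offset draws dim probes together, gave mean effects of -0.46 for Isg15, -0.39 for Usp18, -0.42 for Oas1a and -0.52 for Gbp3, much smaller than without it.

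**Figure D2:**
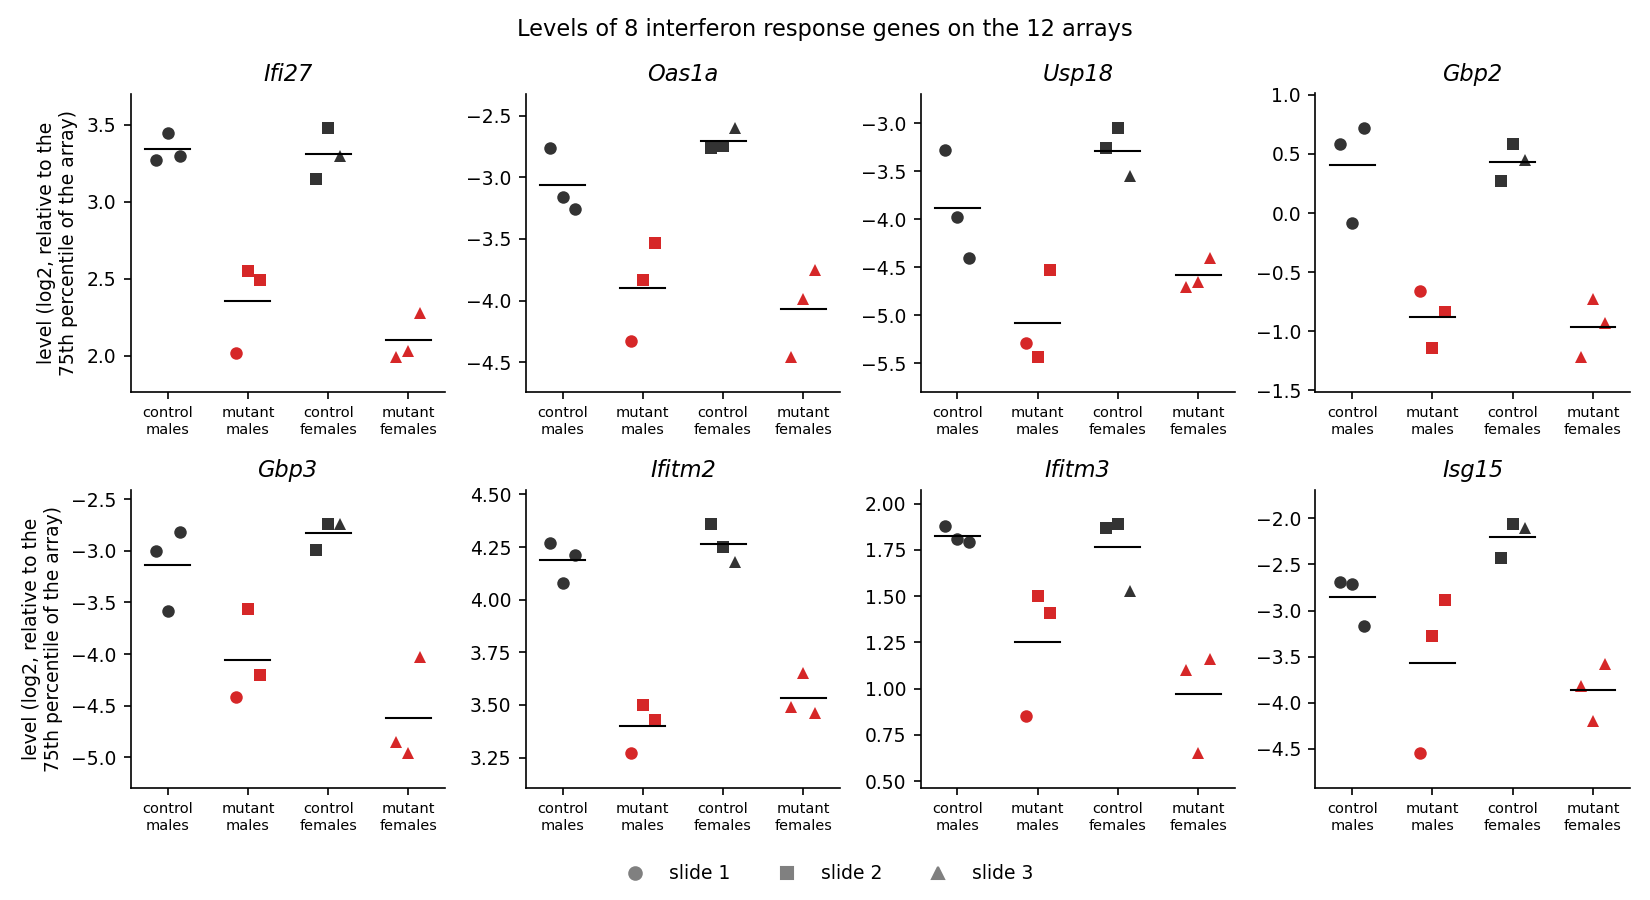
Levels of 8 genes on the 12 arrays, as log2 intensity relative to the 75th percentile of the array; each point is 1 embryo, its shape is the slide, and the bar is the mean of the group. Mutant points (red) lie below control points (dark) in both sexes for Ifi27, Oas1a, Usp18, Gbp2, Ifitm2 and Ifitm3, while Gbp3 and Isg15 overlap in males.

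Irf9 and Eif2ak2 had small, uncalled differences with groups that did not overlap. Irf9, the DNA-binding subunit of ISGF3, read -0.63, -0.67 and -0.54 in control males against -0.88, -0.78 and -0.83 in mutant males. Control females stood at -0.59, -0.43 and -0.25 and mutant females at -0.85, -0.86 and -0.87. The 6 mutants lay close together and below every control. The mean effect was -0.33 ± 0.08 (limma adjusted p = 0.0747). A second Irf9 probe, well above background on only 5 arrays, overlapped in males.

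Eif2ak2 encodes the kinase PKR, which halts translation in response to double-stranded RNA. Control males read -0.37, -0.62 and -0.28, and mutant males -0.68, -0.67 and -0.67. Control females read -0.14, 0.12 and -0.35, and mutant females -0.64, -0.61 and -0.45. Each mutant was below each control of its sex, in males by a narrow gap between -0.62 and -0.67. The mean effect was -0.35 ± 0.10 (limma adjusted p = 0.127).

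The remaining ISGF3 genes were not called in any comparison, and their groups overlapped in at least 1 sex. Rsad2 (viperin), which makes an antiviral nucleotide, lay between -2.48 and -2.37 in control males, -3.27 and -2.36 in mutant males, -2.52 and -1.99 in control females against -3.95 and -2.89 in mutant females. Rtp4, a chaperone of receptors and negative regulator of interferon signalling, spanned -2.15 to -1.78, -3.20 to -1.97, -1.97 to -1.40 and -3.45 to -2.38 in the same order of groups. Both were lower without overlap in females alone, with differences of -1.13 for Rsad2 (limma adjusted p = 0.18) and -1.02 for Rtp4 (limma adjusted p = 0.398). Ddx58 and Oasl2 followed the same form, with female differences of -0.71 and -0.79 and male differences of -0.32 and -0.10. Ddx58 encodes the RNA sensor RIG-I, and Oasl2 is a relative of the oligoadenylate synthetases.

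Bst2 (tetherin), which holds budding viruses at the cell surface, had groups that were barely apart in males, at 3.93 to 4.20 in controls and 3.04 to 3.92 in mutants, and that overlapped in females, at 3.85 to 4.13 and 3.23 to 3.87. Its differences were -0.47 in males and -0.53 in females. Ifit2, which binds viral RNA, differed by -0.32 and -0.64, and Lgals3bp, a secreted galectin-binding glycoprotein, by -0.09 and -0.56. Irf1, the transcription factor downstream of interferon gamma, was nearly level at -0.06 and -0.13, as were Trim25, a ubiquitin ligase for RIG-I, at -0.02 and -0.01, and Parp9 at 0.08 and -0.17. The female Irf1 groups were still barely apart, at 1.37 to 1.39 in controls and 1.12 to 1.35 in mutants. Ifi35 differed by -0.30 in males and -0.09 in females.

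Stat2, Dhx58 and Ifih1 had higher means in mutant males. Dhx58 (LGP2), a relative of RIG-I, stood at -4.42, -4.46 and -3.95 in control males and at -3.70, -3.68 and -3.51 in mutant males, without overlap, but was well above background on only 1 of the control male arrays. Its male difference of 0.64 was not called (limma adjusted p = 0.165). Stat2, the ISGF3 subunit that carries the activation domain, differed by 0.52 in males and 0.08 in females, and within slides by 0.92 in males and -0.48 in females. Ifih1 (MDA5), another RNA sensor, was not well above background on any control male array, and on 1 of the mutant male arrays.

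All IFITM genes were lower in mutants of both sexes without overlap. Ifitm2 read 4.27, 4.08 and 4.21 in control males against 3.27, 3.5 and 3.43 in mutant males. Control females stood at 4.36, 4.25 and 4.18 and mutant females at 3.49, 3.65 and 3.46. The gap between the genotypes was wider than the spread within any group. The signal was 1.73-fold lower in males (-0.79 ± 0.11, limma adjusted p = 0.016) and 1.66-fold lower in females (-0.73 ± 0.11, limma adjusted p = 0.021). A second Ifitm2 probe differed by -0.78 and -0.69, again without overlap in either sex.

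Ifitm3, the member best known for blocking influenza virus, stood at 1.88, 1.81 and 1.79 in control males and at 0.85, 1.5 and 1.41 in mutant males. Control females read 1.87, 1.89 and 1.53, and mutant females 1.1, 0.65 and 1.16. Its mean effect of -0.68 ± 0.14 was called (1.60-fold lower, limma adjusted p = 0.0432), close to the threshold, and it was called under 7 of 21 alternatives. Ifitm1 was the least changed, at 7.56, 7.26 and 7.17 in control males, 6.90, 7.04 and 6.68 in mutant males, 7.19, 6.83 and 6.63 in control females against 6.17, 6.59 and 6.53 in mutant females. Its mean effect was -0.45 ± 0.13 (limma adjusted p = 0.125). In the RefSeq gene order Ifitm2, Ifitm1 and Ifitm3 are neighbours, and their sequences are alike enough that their probes could share signal.

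Slide and genotype partly coincide, so the other called genes were also compared within slides, as mutant male 1 against the control males on slide 1 and as the mutant females against control female 3 on slide 3. The differences were -1.28 and -1.87 for Gbp3, -1.27 and -1.47 for Oas1a, and -1.40 and -1.04 for Usp18. For Ifitm2 the differences were -0.92 and -0.65, and for Ifitm3 -0.97 and -0.56. All kept the negative sign on both slides, with 1 embryo on one side of each comparison and therefore no test. Mutant male 1 was also the lowest mutant male for Ifi27, Gbp3, Oas1a, Ifitm2 and Ifitm3, though not for Gbp2 or Usp18. For those genes the slide 1 difference therefore rests on the most extreme mutant male.

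The antigen presentation genes had differences of both signs. None of the 5 kept was called in any comparison, and their median difference was 0.12 in males and -0.12 in females, against -1.1 and -1.59 for the GBPs, -0.57 and -0.73 for the IFITM genes and -0.28 and -0.54 for the ISGF3 genes. H2-K1, a classical class I heavy chain, read -2.78, -2.28 and -2.58 in control males against -2.17, -1.70 and -2.14 in mutant males. The female controls stood at -2.62, -2.56 and -2.37 and the female mutants at -2.13, -2.75 and -2.72. Thus the males were apart, with mutants higher by 0.54 (limma adjusted p = 0.37), and the females overlapped. A second H2-K1 probe, well above background on all 12 arrays, differed by -0.20 in males and -0.25 in females, so the probes disagree in sign in males.

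Tapbp (tapasin), which loads peptides onto class I molecules, read 0.27, 0.44 and 0.74 in control males, 0.94, 0.59 and 1.05 in mutant males, 0.49, 0.59 and 1.26 in control females against 0.84, 1.26 and 0.69 in mutant females. Psmb9, a subunit of the immunoproteasome, read -4.34, -3.88 and -4.07 in control males, -4.73, -3.63 and -4.56 in mutant males, -4.00, -3.35 and -4.18 in control females against -4.46, -5.08 and -3.96 in mutant females. Both overlapped in both sexes, with mean effects of 0.26 ± 0.16 (limma adjusted p = 0.302) and -0.43 ± 0.24 (limma adjusted p = 0.27). B2m, the shared light chain of class I molecules, differed by -0.07 in males and -0.24 in females, and H2-D1, another heavy chain, by 0.12 and -0.12. Second probes of Tapbp and H2-D1, well above background on all 12 arrays, were higher in mutant males without overlap, by 0.22 and 0.31. In females these probes overlapped, at 0.08 and -0.09. A second B2m probe overlapped in both sexes, at 0.02 in males and -0.08 in females.

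**Figure D3:**
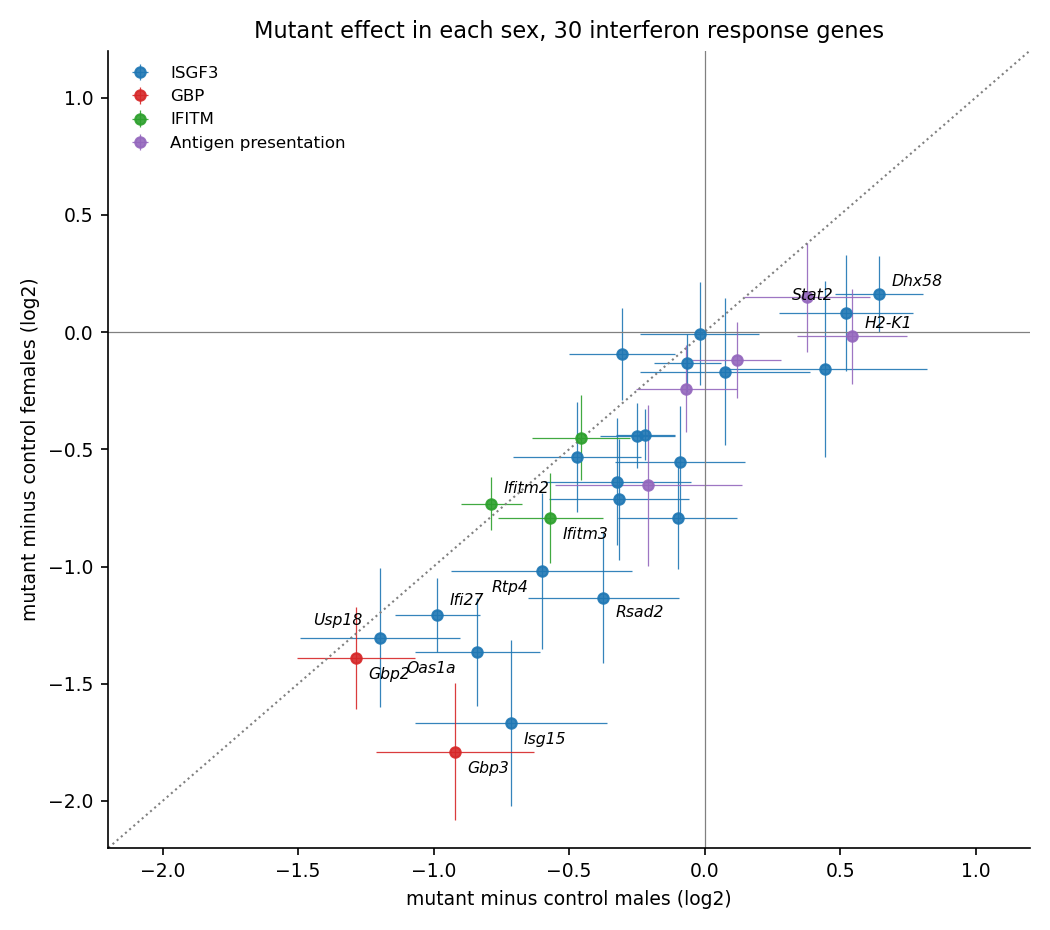
Mutant effect in males (horizontal axis) against females (vertical axis) for the 30 genes, each in log2 with its standard error from limma and coloured by branch; the dotted line marks equal effects. Most points lie in the lower left, below the dotted line, and the antigen presentation genes lie near 0 or to its right, except Psmb9 at -0.21 and -0.65.

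Groups that do not overlap gave a count that needs no model. In males 10 of 30 genes were lower without overlap, against 11.9% of all features, and in females 16 of 30, against 7.4%. In both sexes at once 9 of 30 were, against 2.16% of all features: Irf9, Ifi27, Oas1a, Usp18, Eif2ak2, Gbp2, Ifitm1, Ifitm2 and Ifitm3. None of the 30 was higher without overlap in both sexes, and Dhx58 and H2-K1 were in males alone. Only the mutant groups carried Dhx58 through the brightness rule, so its place in this count is not independent of that rule.

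The effect was more negative in females than in males for 26 of 30 genes, against 51.7% of all features, and the median difference of the effects was 0.24. This lean depended on the slide: with slide as a fixed block the effect was more negative in males for 16 of 30 genes and the median was -0.03, and with slide as a random block it was for 8 of 30, with a median of 0.09. That difference was not established for any gene: limma called 0 of 30 at the adjusted threshold, as it called 0.0% of all features, and 1 of 30, Oasl2, had an unadjusted p under 0.05, against 3.66% of features. Between the sexes themselves, limma called 0 of 30 genes in controls, against 0.177% of features, and 0 of 30 in mutants, against 0.13%. At an unadjusted p under 0.05 there were 3 of 30 in controls and 4 of 30 in mutants, against 10.8% and 11.5% of all features.

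Of the 11 genes not kept, Mx1 and Mx2 were not matched to a probe by accession. Irf7, Ifit1, Ifi44 and Tap1 were well above background on 0 of 12 arrays, Ifit3 on 1, Cxcl10 on 2, Psmb8 on 4, and Xaf1 and Parp14 on 5 each. Thus Irf7, which amplifies the type I response, and Ifit1, a classical target of ISGF3, gave no measurable level in any group. The genes just inside the limit were Ifih1, on 7 arrays with levels from -5.39 to -3.70, and Parp9, on 8 with levels from -5.52 to -4.28. Just outside were Xaf1, from -5.22 to -4.17, and Parp14, from -6.15 to -4.01. Psmb8, next to Tap1 in the gene order, was well above background on 2 mutant arrays of each sex and on 0 control arrays.

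The genes upstream of the response were read from further lists. Of 9 interferon genes on the array, 8, among them Ifnb1 and Ifng, were well above background on 0 of 12 arrays, and the other, Ifnz, differed by -0.02 in the mean effect. None of the 9 receptor and kinase genes was called, among them Ifnar1 at -0.13 and Ifnar2 at -0.22, the smallest p of that list (limma adjusted p = 0.169). None of the 7 further transcription factor genes was called; Irf2, a repressor that competes with IRF1, had the smallest p and differed by 0.48 (limma adjusted p = 0.191). None of 9 sensors and adaptors and none of 12 genes that restrain the response was called. Their medians were 0.05 and -0.08. With 1.12% of all features called in either direction in the mean effect, 0 calls in lists this short are near that background.

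Among 30 other interferon-induced genes tested, 21 were lower in the mean effect, with a median of -0.20, and 3 were called, all lower; over all features 56.6% were lower, the median was -0.05 and 0.985% were called lower. Tgtp1, an immunity-related GTPase induced by interferon gamma, fell by 1.29 in males (limma adjusted p = 0.0332) and by 1.04 in the mean effect (limma adjusted p = 0.00749). Its probe was well above background on only 2 of the mutant male arrays, with a mean level of -4.80 in mutant males. In females Tgtp1 differed by -0.785 and was not called (limma adjusted p = 0.276). Trim21, a cytosolic antibody receptor, fell by 0.63 (limma adjusted p = 0.0177), and Oas1c, a neighbour of Oas1a in sequence, by 0.68 (limma adjusted p = 0.0192). Irgm1 and Gbp5 differed by -0.53 and -0.71 without being called (limma adjusted p = 0.0687 and 0.0713).

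Leukocytes and endothelium are other cells that express many of these genes. Of 17 macrophage and leukocyte markers on the array, 10 were tested, 4 were well above background on all 12 arrays, Lyve1 and Lyz2 on 0, and Ptprc, which defines leukocytes, on 3. None was called, and their median difference was 0.53 in males and -0.17 in females. Their summed level, in units of the 75th percentile, ranged over 1.25 to 4.45 in control males, 1.89 to 4.47 in mutant males, 1.40 to 3.86 in control females against 0.794 to 3.31 in mutant females. All 12 endothelial markers were tested and none was called, with medians of 0.55 in males and -0.36 in females and sums of 13.5 to 20, 13.5 to 25.1, 14.7 to 20.7 and 11 to 20.5 in the same order. For both lists the sums of mutants and controls overlapped in each sex. The median of the 30 interferon response genes was -0.28 in males and -0.54 in females. The 8 mesonephric epithelium markers had medians of 1.00 in males and -0.09 in females, with sums of 1.82 to 2.96 in control males against 5.09 to 11.2 in mutant males. None of them was called. Their sums rest mostly on the brightest marker, Cdh16, with mean levels of 0.51 in control males and 2.28 in mutant males. The marker lists with medians above 0 in both sexes were the gonadal somatic markers, with medians of 0.28 in males and 0.29 in females and 0 of 8 genes lower, the mesenchyme markers, at 0.25 and 0.26, the erythroid markers, at 0.43 and 0.09, and the germ cell markers, at 0.16 and 0.68; no marker of these lists was called. The part of these cells in the differences was not tested.

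**Figure D4:**
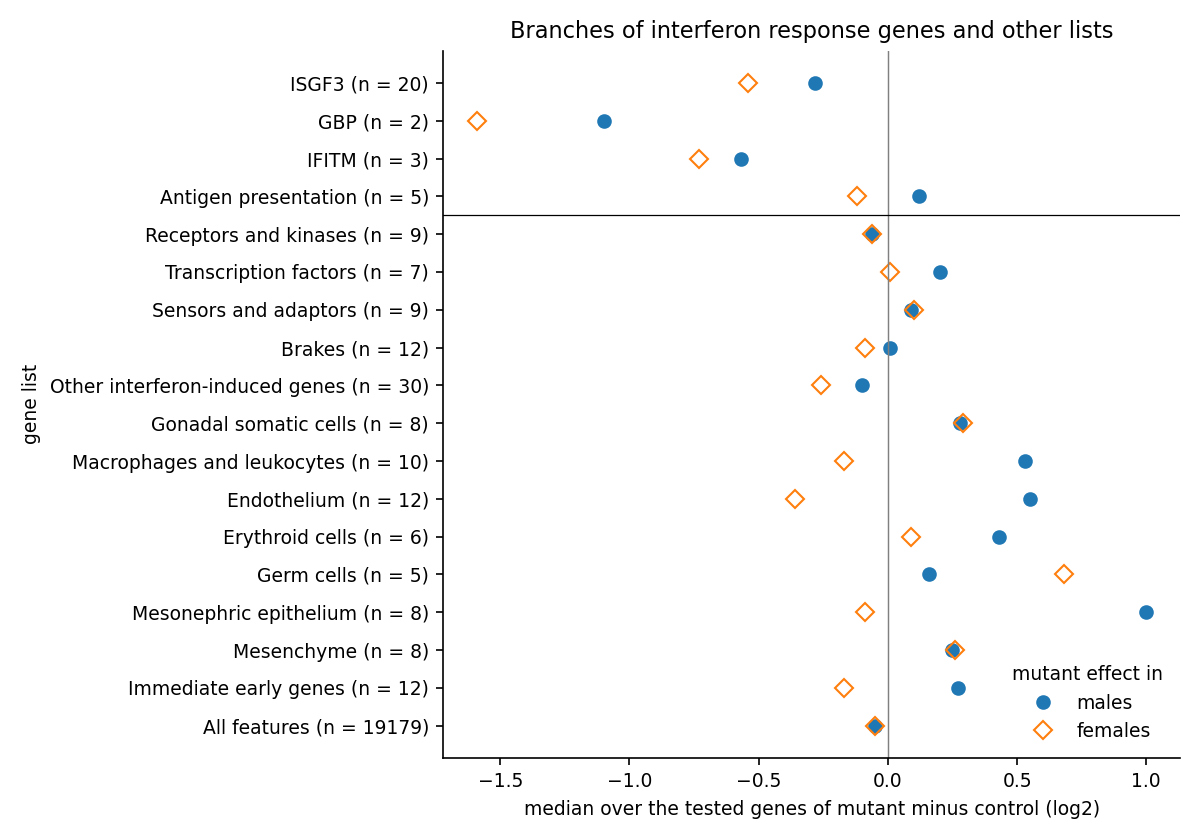
Median over the tested genes of the mutant effect in males (filled circles) and females (open diamonds), in log2. Rows are the 4 branches, further interferon pathway lists, cell type markers, immediate early genes (a sign of handling) and all features. Here n is the number of genes, and no error is drawn because medians over genes have no replicate error. The GBP, IFITM and ISGF3 branches lie left of 0 in both sexes. The leukocyte, endothelial and mesonephric epithelium markers lie right of 0 in males and left of it in females. So do the 12 immediate early genes, at 0.27 and -0.17, of which none was called.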

How the data were processed

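The deposited value is an intensity: per the file headers, Agilent Feature Extraction 10.5.1.1 (also named in the submitters' processing notes) gave a processed signal for array design 014868, which is linear, has its background subtracted and carries no scaling between arrays. Control spots and outlier spots were left out, spots of a probe were averaged to 41174 probes, and each log2 signal was set relative to the log2 75th percentile of its array. A RefSeq table of GRCm38.p6 turned accessions into symbols (27479 probes, 18749 symbols).

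A linear model with 4 group means and all 12 arrays was fitted with limma 3.58.1 (R 4.3.3), using Benjamini-Hochberg adjustment over 19179 features. The fit was tested on simulated data. The p-values measure the spread between single embryos within a group, with 1 pooled estimate per feature, and take no account of slide. Every gene kept was named; values on every array and full statistics were given for genes called in any comparison, genes apart in both sexes and the 3 smallest p-values of each branch in the mean effect. The members, lists and rules were chosen with earlier results of these data known. Alternatives were quantile normalization, normexp background correction (offset 50, on the deposited median intensity and local background), separate tests of every probe, a looser and a stricter filter on dim probes, fits of only the groups compared, the replicate number or slide as a block, array brightness as a covariate, and leaving out each array. The number of arrays limits the precision.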

Additional observations from a re-analysis of the deposited data

How the results depend on the processing

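With 3 embryos in a group, the depth of the evidence is set by the number of arrays, and dim probes such as those of Usp18, Oas1a and Gbp3 rest on signals near background. Of 30 genes, 3 were called in males, and 0 were with no filter on dim probes, 0 with only the groups compared and 1 with slide as a fixed block; leaving out each array in turn gave 0 to 3. In females 5 were called, against 1 with no filter, 3 with only the groups compared, 0 with slide as a fixed block, 1 with slide as a random block and 2 with array brightness as a covariate; leaving out each array gave 0 to 6. In the mean effect 7 were called, against 4 with slide as a fixed block and 3 with array brightness; leaving out each array gave 5 to 17, with 17 reached without control female 3. The setting with only the groups compared gives no second value for the mean effect. Sex comparisons and the difference of effects stayed at 0 of 30 throughout the alternatives. Why these counts moved was not tested, except that no filter means more features tested.

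Embryos were not treated as paired by replicate number. Same-numbered deviations correlated at -0.108, 0.311 and 0.297 in males and at 0.012, -0.236 and -0.532 in females. Those with unequal numbers ranged from -0.483 to 0.307 in males and from -0.492 to 0.553 in females. Such values, from 3 embryos in a group, cannot settle whether the numbers mark pairs. With the replicate number as a block, 2 genes were called in males, 1 in females and 6 in the mean effect.

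Signs turned in uncalled antigen presentation genes only, among the 14 genes followed through the alternatives. Psmb9 in males was 0.0040 without mutant male 1, and ranged from -0.5428 to 0.0040 over the arrays left out. Tapbp in females was -0.3307 with slide as a fixed block, -0.0484 with slide as a random block, -0.1324 with array brightness and -0.0195 without mutant female 2, with a range of -0.0195 to 0.3872 over the arrays left out. H2-K1 in females was 0.0611 under quantile normalization, and 0.0571, 0.0901 and 0.0768 without control female 3, mutant female 2 and mutant female 3, with a range of -0.2207 to 0.0901. The cause was not tested.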
